A study of Mus musculus with 12 samples.

Results

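The cytosolic ribosomal protein genes are the genes whose products, together with ribosomal RNA, build the ribosomes that translate nuclear messages in the cytoplasm. They were taken here by symbol, as the genes named Rpl or Rps followed by a number, or Rplp or Rpsa, after 5 ribosomal S6 kinase symbols (which begin with Rps6k) and 1 pseudogene symbol were left out. The rule gave 66 of the 11861 genes with a value, each read by 1 probe set. Of these, 55 encode subunit proteins (22 of the small and 33 of the large subunit) and 11 are paralogs, retrotransposed copies or associated genes that the symbol rule takes in: Rpl10l, Rpl22l1, Rpl32l, Rpl36al, Rpl37rt, Rpl7l1, Rps19bp1, Rps23rg1, Rps27l, Rps27rt and Rps4l. Of 80 listed subunit genes, 24 were not analysed here, among them Rplp2, Rps27a and Rpl13a.

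The genes were read on 12 arrays of RNA from spheroids, the rounded aggregates that isolated hepatocytes form when they cannot attach to a plate. Hepatocytes came from C57BL/6 mice, for which the labels name no drug and no engineered allele, and 4 frozen preparations were used, male 1, male 2, female 1 and female 2, each a pool of 3 mice, so that no value belongs to a single animal. RNA was taken from each preparation 1, 7 and 14 days after the spheroids had formed, which gave 6 groups of sex and day with 2 arrays each. No fresh liver or plated culture was compared here, and the labels do not state the age of the mice.

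Ribosomal protein messages are among the most abundant in a hepatocyte, a cell that secretes much of the plasma's protein. The small subunit reads the message and the large subunit joins the amino acids, and since each subunit takes up most of its proteins in a single copy, cells usually make the set in step. Most of these messages start with a C followed by an unbroken run of pyrimidines (the terminal oligopyrimidine, or TOP, tract), through which the kinase complex mTORC1 and the RNA-binding protein Larp1 govern their translation. An array measures how much message is present and cannot show how much of it is translated.

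The start region is shown for a few genes that the results below turn on, as the sequence from 15 bases before to 15 bases after the start that RefSeq annotates on GRCm38.p6, so that the left part of each line lies before the annotated message. Capitals mark a run of at least 7 pyrimidines (C or T), and the coordinates are those of the annotation and not of the probe sets.
Rps6, chr4:86857353-86857382, minus strand: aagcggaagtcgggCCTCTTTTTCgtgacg
Rpl19, chr11:98026909-98026938, plus strand: tgggCTCTCCCCTTCgcagataatgggcgg
Rpl35a, chr16:33056467-33056496, plus strand: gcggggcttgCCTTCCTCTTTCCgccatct
Rpl27, chr11:101442230-101442259, plus strand: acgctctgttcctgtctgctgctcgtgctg
Rpsa, chr9:120127751-120127780, plus strand: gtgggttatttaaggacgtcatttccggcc
Rps27l, chr9:66946071-66946100, plus strand: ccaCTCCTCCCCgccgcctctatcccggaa
Rps19bp1, chr15:80264292-80264321, minus strand: cagggcggaagtagctcgccgcgtgtgggc
Rpl10l, chr12:66284387-66284416, minus strand: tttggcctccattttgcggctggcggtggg
The subunit genes Rps6, Rpl19 and Rpl35a hold such a run and Rpl27 and Rpsa do not. The other 3 are a paralog, an associated gene and a retrogene, and of these Rps27l holds one. The runs of Rpl19 and Rps27l end before the annotated start, outside the annotated message, and those of Rps6 and Rpl35a span it.

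Such a run lay in the window of 26 of the 53 genes with an entry (49.06%), against 2100 of 9644 genes on the array with an entry (21.78%). Runs on either side of the annotated start were counted, so this is not a count of TOP tracts. Within the set it was found in 22 of 43 subunit genes (51.16%) and 4 of the 10 other genes. In the full 300 bases of each entry the letters CGGAAG, on either strand, stood in 32 of 53 genes (60.38%) against 33.88% of the genes on the array, and ATGGCG, on either strand, in 16 of 53 (30.19%) against 17.3%. The reverse strand of CGGAAG reads CTTCCG, so such a match can share bases with a pyrimidine run. Members without an entry are not described by sequence, and a missing match says only that these letters were not in the window.

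Genes for small nucleolar RNAs and named pseudogenes were counted as well, the pseudogenes for the set alone and not for other genes. A gene for a small nucleolar RNA lay inside 16 of the 66 (24.24%), with 5 of them in Rpl4 and 4 in Rpl7a, against 237 of the 11861 genes (2%). By RefSeq names, 45 of the 66 had at least 1 processed or other pseudogene, 210 in all, with 23 named for Rpl31. Probe sequences were not analysed here, so a probe set may also read such a copy, and this uncertainty holds for every member value below. Rps4l is itself annotated as a transcribed pseudogene.

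The hepatocyte markers (Alb, Ttr, Apoa1, Hnf4a, Cps1, Serpina1a and Apob) averaged 11.88 to 12.06 log2 units on every array, near the top of the scale, and 0 of 7 passed the test between days 14 and 1 (limma, with 1 at an unadjusted p below 0.05). RNA of other liver cells was present, and part of their markers changed with culture time. Between day 14 and day 1, 6 of 8 stellate cell markers and 4 of 6 endothelial markers fell, 2 of 4 cholangiocyte markers and 1 of 7 Kupffer cell markers rose, and 10 of 13 cell cycle genes fell (limma). Of all genes 14.4% passed, 7.59% higher and 6.8% lower. The 1 Kupffer cell marker is 14.3% of its list, near the share of all genes in either direction. In the paired fit, with the preparation as a replicate block, 5 of 7 Kupffer cell markers rose, 5 of 6 endothelial markers fell and 1 cholangiocyte marker also fell. The other marker counts were as given, and 14% of all genes passed that fit. By mean, 4 Kupffer cell markers lay under 4.79 at day 1 and 2 at day 14. Of the endothelial markers 4 lay under it at day 14 and 0 at day 1. Of the stellate markers 2 lay under it at day 14 and 0 at day 1. Of the cholangiocyte markers 1 lay under it at day 14 and 2 at day 1. Every probe set in the table reaches 4.79 on at least 1 array. Genes that low on 1 day stand in the table through higher arrays, a selection that favours a difference between days. The mean of the stellate list spanned 4.58 to 6.82 across the day 14 arrays, against 7.31 to 7.61 at day 1, while that of the Kupffer list spanned 5.15 to 7.23, against 3.97 to 5.27. In RNA from whole spheroids, fewer cells of a type and less RNA per cell cannot be told apart, and the part of this shift in the values below was not tested. Array medians over all probe sets lay between 7.47 and 7.53.

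Values are deposited log2 intensities, and levels are not compared between genes, because probe sets differ in brightness. Across the 12 arrays 46 of the 66 genes had a mean above 10 and 0 reached 12 on any array. By contrast, 2 genes, Rpl10l and Rps23rg1, had a mean below 4.79, the level that every probe set in the table reaches on at least 1 array. The plot of levels by day shows Rpl10l and 5 other genes that the day comparisons name.

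**Figure D1:**
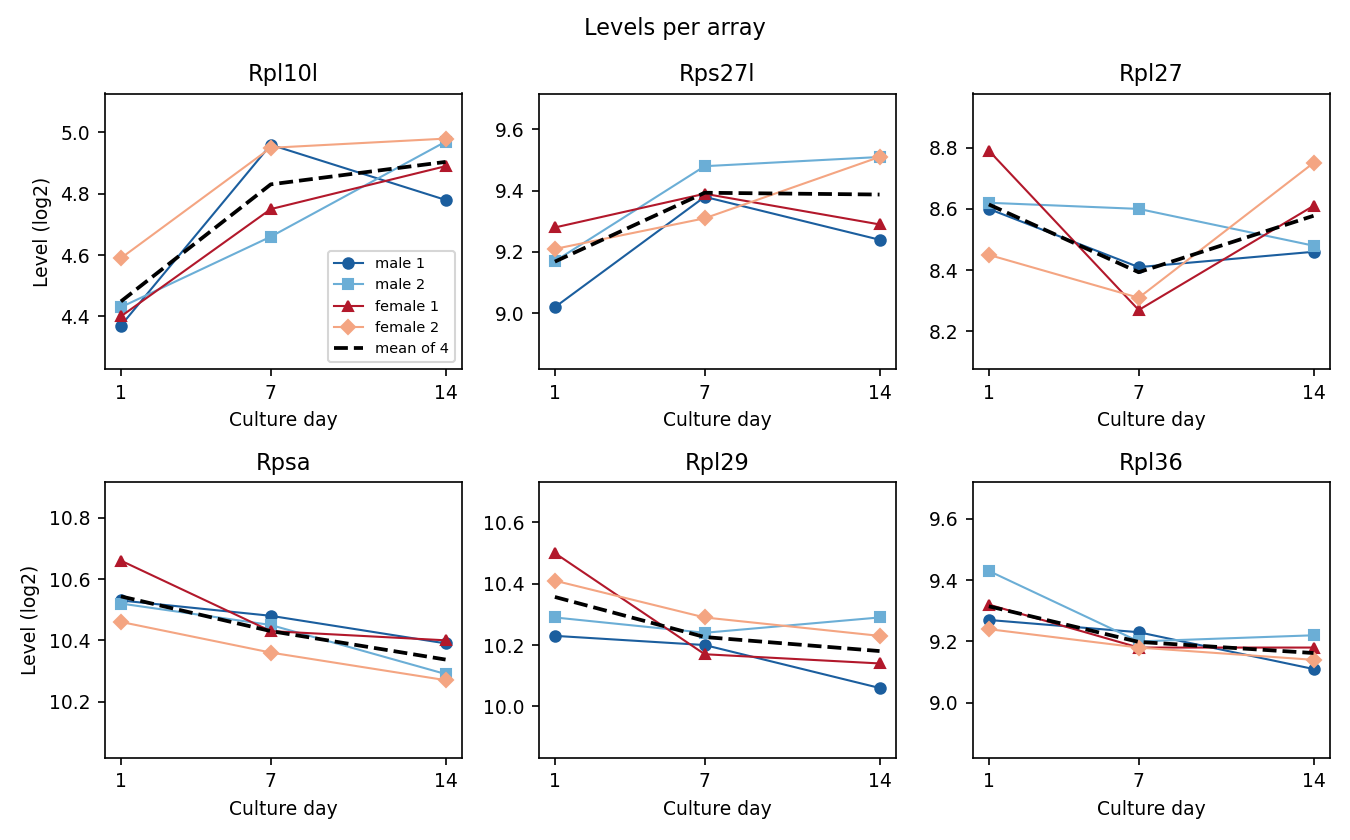
Deposited log2 level of Rpl10l, Rps27l, Rpl27, Rpsa, Rpl29 and Rpl36 by culture day, with a coloured line for each preparation, a dashed black line for the mean of the 4, and axes of equal length that do not start at 0. Rpl10l lies higher on all 4 day 14 arrays (4.78 to 4.98) than on the day 1 arrays (4.37 to 4.59), while Rpsa and Rpl36 lie lower at day 14 and the other 3 genes overlap between those days.

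The first comparison asked whether ribosomal protein messages were held over the longest interval, day 14 against day 1. No subunit gene passed the test. Among the 66 genes 1 rose, Rpl10l, and 0 fell (limma, Benjamini-Hochberg adjusted p below 0.05 over all 11861 genes). Of all genes 14.4% passed, 7.59% higher and 6.8% lower. Rpl10l lay under 4.79 on every day 1 array and is in the table only through later arrays. That selection favours a higher later value, so its call and its ranges are given as a description. At an unadjusted p below 0.05 the count was 5 of 66, against 28.6% of all genes. The median change of the set was -0.0031 log2 units, against 0.0070 for all genes, with 28 genes above 0 and 38 below. Without 1 preparation that median lay between -0.0578 (without female 2) and 0.0433 (without female 1), so its sign is not fixed by these data. The ranges of the 4 preparations at each day lay apart for 3 genes (4.55%), Rpl10l higher and Rpsa and Rpl36 lower, against 15.8% of all genes, 8.25% higher and 7.57% lower.

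The changes were narrow as well as centred near 0. The median absolute change was 0.043 log2 units, against 0.129 for all genes, and the 90th percentile of the absolute change was 0.124, against 0.513. This was not particular to the set. The same 2 values were 0.054 and 0.110 in other TOP messages, and 0.045 and 0.115 in translation elongation genes. The 95% confidence interval of the change lay inside ±0.5 log2 units (a 1.41-fold difference) for 64 of the 66, including all 55 subunit genes, and for 8182 of the 11861 genes. Over the subunit genes the lowest bound was -0.36 and the highest 0.47, which bounds the change in the deposited log2 values. Those values may be compressed near the top of the scale, which was not tested, and may include pseudogene copies. The message itself is therefore not bounded to that size. The median standard error was 0.068 in the set and 0.095 over all genes.

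**Figure D2:**
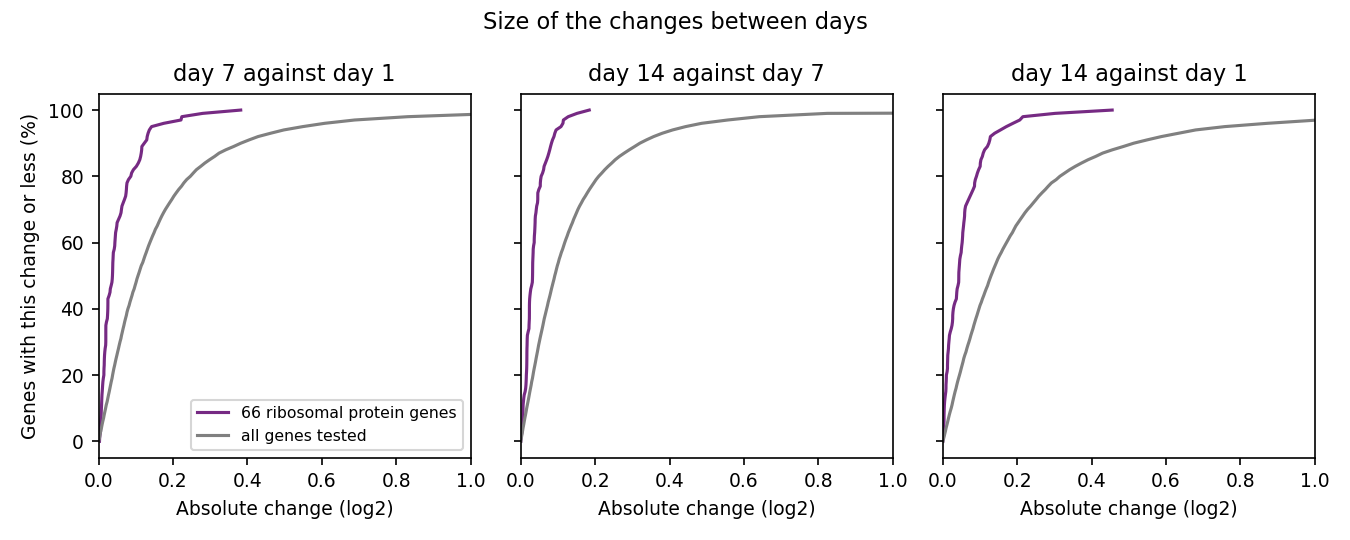
Absolute log2 change of the 66 ribosomal protein genes and of all 11861 genes, as the share of genes at or below each size, for each day comparison, with the horizontal axis ending at 1. The curve of the ribosomal protein genes reaches its middle at 0.043 log2 units between days 14 and 1, against 0.129 for all genes.

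Rpl10l, a retrogene copy of the X-linked subunit gene Rpl10 whose expression is best known from testis, was the gene that rose. It is near the background: 7 of its 12 values lie under 4.79, all 4 of day 1 among them, and it stands in the table only through later arrays, a selection that favours a higher later value. Its level over male 1, male 2, female 1 and female 2 was 4.78, 4.97, 4.89 and 4.98 at day 14, against 4.37, 4.43, 4.40 and 4.59 at day 1. The ranges did not overlap, and all 4 preparations were higher at day 14. The difference in the deposited values was 0.46 ± 0.09 log2 units (SE, limma adjusted p = 0.0141), which is given as a description, with no fold, because of that selection. With each preparation left out in turn it was 0.42 to 0.49 and the adjusted p 0.0758 to 0.0949, so the call was lost without any 1 of them, and with a trended and robust spread the adjusted p was 0.101.

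Among small subunit genes 0 of 22 passed between days 14 and 1 (limma, with 1 at an unadjusted p below 0.05), with 11 above 0 and 11 below. Rpsa, a small subunit protein that was first described as a laminin receptor precursor, read 10.39, 10.29, 10.40 and 10.27 at day 14 in male 1, male 2, female 1 and female 2, against 10.53, 10.52, 10.66 and 10.46 at day 1. Every preparation was lower at day 14 and the ranges did not overlap. The difference was -0.21 ± 0.07 log2 units (SE, 95% interval -0.36 to -0.05) with a limma adjusted p of 0.076, which missed the threshold. With a trended and robust spread the adjusted p was 0.0119.

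Other small subunit genes differed less. Rps20 had a difference of -0.13 (limma adjusted p = 0.346), and Rps19, mutated in the inherited anaemia named after Diamond and Blackfan, one of 0.12 (adjusted p = 0.390). Rps6, the protein that S6 kinases phosphorylate downstream of mTORC1, read 11.25, 11.39, 11.32 and 11.23 at day 14 in the same order of preparations, against 11.27, 11.30, 11.35 and 11.22 at day 1. Its ranges overlapped, and the interval of its difference, -0.12 to 0.16, bounds the change in its deposited values and not in the message itself.

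Among large subunit genes 0 of 33 passed (limma, with 2 at an unadjusted p below 0.05), with 10 above 0 and 23 below. Rpl36, a large subunit protein, read 9.11, 9.22, 9.18 and 9.14 at day 14 in male 1, male 2, female 1 and female 2, against 9.27, 9.43, 9.32 and 9.24 at day 1. It was lower in all 4 preparations with ranges apart, by a difference of -0.15 ± 0.06 (SE, limma adjusted p = 0.137). Rpl29, which also binds heparin, read 10.06, 10.29, 10.14 and 10.23 at day 14, against 10.23, 10.29, 10.50 and 10.41 at day 1. Male 2 read the same on both days to 2 decimals and the ranges overlapped, with a difference of -0.18 ± 0.07 (adjusted p = 0.133, or 0.0373 with a trended and robust spread).

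The large subunit genes named by rule for their roles had smaller differences. Rpl5 and Rpl11, which together bind and restrain the p53 ligase Mdm2 when ribosome assembly fails, each differed by less than 0.01 log2 units, with intervals of -0.16 to 0.15 for Rpl5 and -0.14 to 0.13 for Rpl11. Rplp0 and Rplp1, proteins of the stalk that recruits elongation factors, differed by -0.05 each. The widest interval in the large subunit was that of Rpl35a, another gene of the same anaemia, at -0.30 to 0.47, with female 1 lower by 0.35 and female 2 higher by 0.71.

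**Figure D3:**
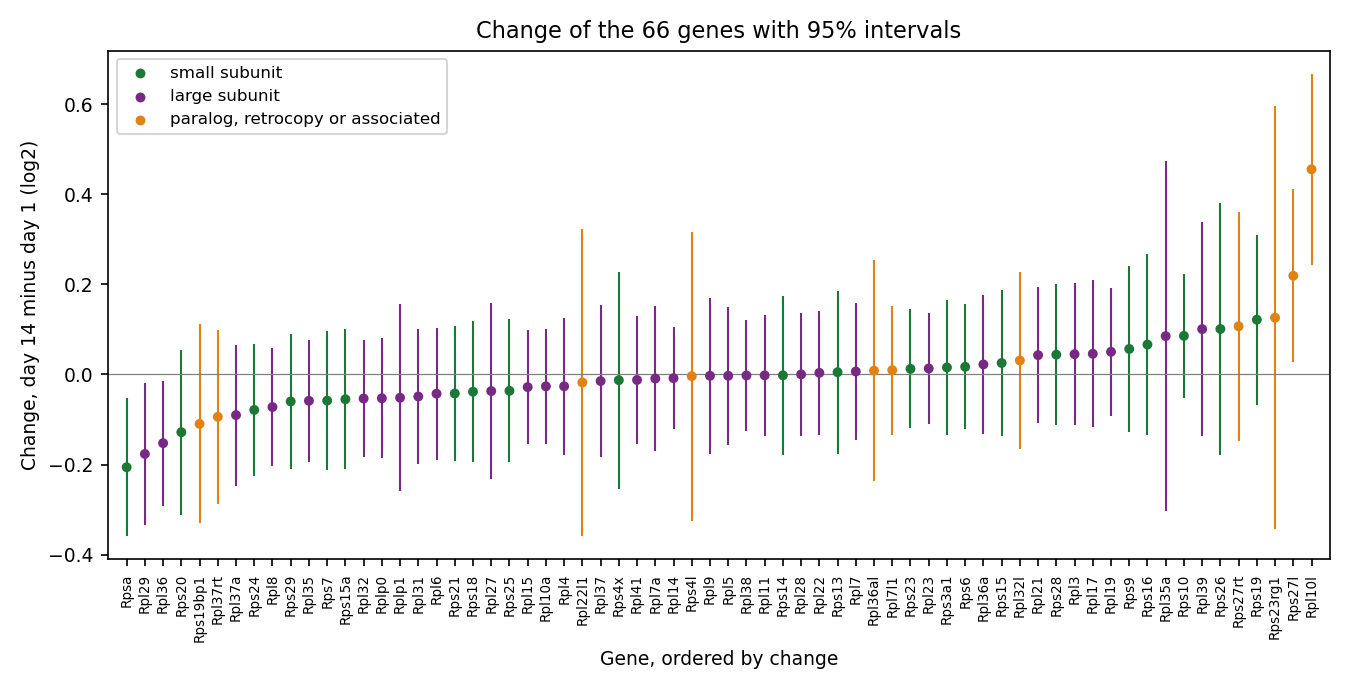
Change of each of the 66 ribosomal protein genes in log2 units, day 14 minus day 1, as points with 95% confidence intervals from limma, ordered by change and coloured by class (small subunit, large subunit, paralog or associated). Rpl10l at 0.46 is the 1 gene past the adjusted threshold, and the intervals of all 55 subunit genes stay inside ±0.5. Rpl10l is in the table only through arrays after day 1, a selection that favours a higher later value.

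The paralogs and associated genes had the wider spread, with a 90th percentile of the absolute change of 0.219, against 0.101 for the subunit genes. With 11 genes that percentile is the value of 1 gene, Rps27l. The 11 genes were also noisier, with a median standard error of 0.097, against 0.067 for the subunit genes. Rps27l, a p53-induced paralog of the subunit gene Rps27, read 9.02, 9.17, 9.28 and 9.21 at day 1, 9.38, 9.48, 9.39 and 9.31 at day 7, and 9.24, 9.51, 9.29 and 9.51 at day 14, in male 1, male 2, female 1 and female 2. Days 7 and 1 did not overlap, and all 4 preparations were higher at day 14 than at day 1. The day 14 difference was 0.22 ± 0.08 (SE, limma adjusted p = 0.124), and with a trended and robust spread its adjusted p was 0.0405. Rpl22l1, the paralog that can take the place of Rpl22, differed by -0.02 with a wide interval of -0.36 to 0.32.

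The remaining ones lay nearer to 0 or were noisier. Rps19bp1, whose product binds Rps19 and is not a subunit protein, differed by -0.11 (limma adjusted p = 0.515), and Rpl37rt, a retrotransposed copy of Rpl37, by -0.09 (adjusted p = 0.523). The retrotransposed copies Rps27rt and Rps23rg1 differed by 0.11 and 0.13. Rpl36al and Rpl7l1, both paralogs, differed by 0.01 each, and Rpl32l by 0.03. Rps23rg1 ranged between 3.83 and 5.10 and lay under 4.79 on 9 of 12 arrays, so that its values are mostly near the background.

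Day 7 against day 1 asked which part of the interval holds a change. None of the 66 genes passed (limma, adjusted p), with 3 at an unadjusted p below 0.05, whereas 4.72% of all genes passed adjusted, 2.74% higher and 1.98% lower, and 19.5% unadjusted. The median change was -0.0128, with 27 genes above 0 and 39 below. It was 0.0262 without female 1 and -0.0557 without female 2, and 0.0359 or -0.0634 without the day 1 array alone of female 1 or female 2. Ranges of the 4 preparations at each day lay apart for 3 genes, Rpl10l and Rps27l higher and Rpl36 lower, which is 4.55% of the set against 10.4% of all genes, 5.24% higher and 5.19% lower. Rpl10l had the largest difference, 0.38 ± 0.09 (SE), with a limma adjusted p of 0.057. It is in the table only through arrays after day 1, so its difference and its ranges are descriptions here too.

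Rpl27, a large subunit gene, had the lowest one. It read 8.60, 8.62, 8.79 and 8.45 at day 1, 8.41, 8.60, 8.27 and 8.31 at day 7, and 8.46, 8.48, 8.61 and 8.75 at day 14 in male 1, male 2, female 1 and female 2. All 4 preparations were lower at day 7 than at day 1, by a mean of -0.22 ± 0.09 (limma adjusted p = 0.202), with the ranges overlapping. At day 14 the 2 female preparations were above their day 7 values by 0.35 and 0.45.

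Between days 14 and 7, 0 of the 66 passed (limma) and 0 had an unadjusted p below 0.05, whereas 0.489% of all genes passed adjusted, 0.304% higher and 0.185% lower, and 13.7% unadjusted. With the preparation as a replicate block 0 of the 66 passed as well, against 0.852% of all genes. The range of differences ran between -0.11 for Rpl32l and 0.18 for Rpl27 (adjusted p = 0.390). Rpl19, a large subunit gene often used as a reference for normalization, was the single gene with ranges apart (1.52% of the set, against 5.21% of all genes, 2.86% higher and 2.35% lower). It read 11.38, 11.37, 11.38 and 11.38 at day 14, against 11.33, 11.29, 11.34 and 11.31 at day 7, a difference of 0.06 (adjusted p = 0.737).

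Across the 3 comparisons, few genes kept 1 direction in all 4 preparations. The count was 9 of 66 for day 7 against day 1 (13.6%, against 29.1% of all genes), 6 for day 14 against day 7 (9.09%, against 24.4%) and 7 for day 14 against day 1 (10.6%, against 34.3%). The 3 comparisons share arrays, and these shares are descriptions without a test.

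Within preparations, the 2 female pools differed between days 14 and 1 as sets, in opposite directions, while male 2 was evenly split. Most of the female difference lay in the day 1 arrays. The set's median deviation from each gene's mean over all arrays was 0.09 in female 1 at day 1 and -0.03 at day 14. In female 2 it was -0.09 at day 1 and 0.02 at day 14. Each value rests on 1 array, and whether it is an offset of that array was not tested. Between days 14 and 1, 57 of 66 genes were lower in female 1 (median -0.11) and 57 of 66 were higher in female 2 (median 0.11). In male 1, 41 were lower (median -0.04), and in male 2, 33 were lower and 33 higher. Over all genes 50.9% were lower in female 1 and 46.0% in female 2, with medians of -0.01 and 0.03. With arrays centred on their medians the counts were 57 lower in female 1 and 55 higher in female 2, and after a second quantile normalization 57 and 59.

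**Figure D4:**
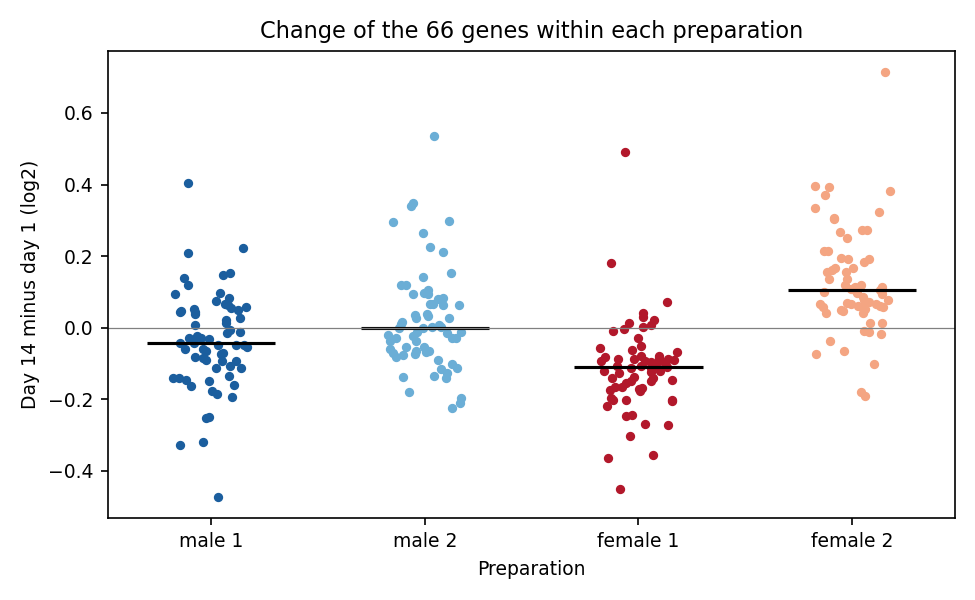
Log2 difference of each of the 66 ribosomal protein genes, day 14 minus day 1, within each preparation, with a point for each gene and a black bar at the median. The median is -0.11 in female 1, where 57 genes lie below 0, and 0.11 in female 2, where 57 lie above 0.

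The 2 female pools lay furthest apart at day 1. There, 64 of the 66 genes were higher in female 1 than in female 2, by a median of 0.19 log2 units, against 53.8% of all genes and a median of 0.02. That held for 33 of 33 large subunit genes, 21 of 22 small subunit genes and 10 of 11 others, with Rpl10l and Rps15 as the exceptions. Rpl35a showed the widest gap, with 8.83 in female 1 and 8.06 in female 2, and Rpl39 and Rps4x, an X-linked small subunit gene, read 10.22 and 10.26 in female 1, against 9.74 and 9.79 in female 2.

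The gap was smaller on the later days. At day 7, 40 of 66 were higher in female 1 (median 0.01), and at day 14, 20 of 66 were (median -0.04). Between male 1 and male 2 the medians were -0.02 at day 1, -0.01 at day 7 and -0.04 at day 14. Each of these differences sets 1 array against another, so none has a test.

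Related lists had smaller medians on the same 2 day 1 arrays. Other TOP messages were higher in female 1 for 14 of 16 genes (median 0.11), initiation factors for 25 of 31 (median 0.11) and mitochondrial ribosomal protein genes for 50 of 76 (median 0.07). Markers of other cells differed there too. All 7 Kupffer cell markers were higher in female 1 (median 1.11) and all 6 endothelial markers (median 0.27), against 4 of 8 stellate and 4 of 7 hepatocyte markers, and the part of these cells in the ribosomal protein gap was not tested.

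**Figure D5:**
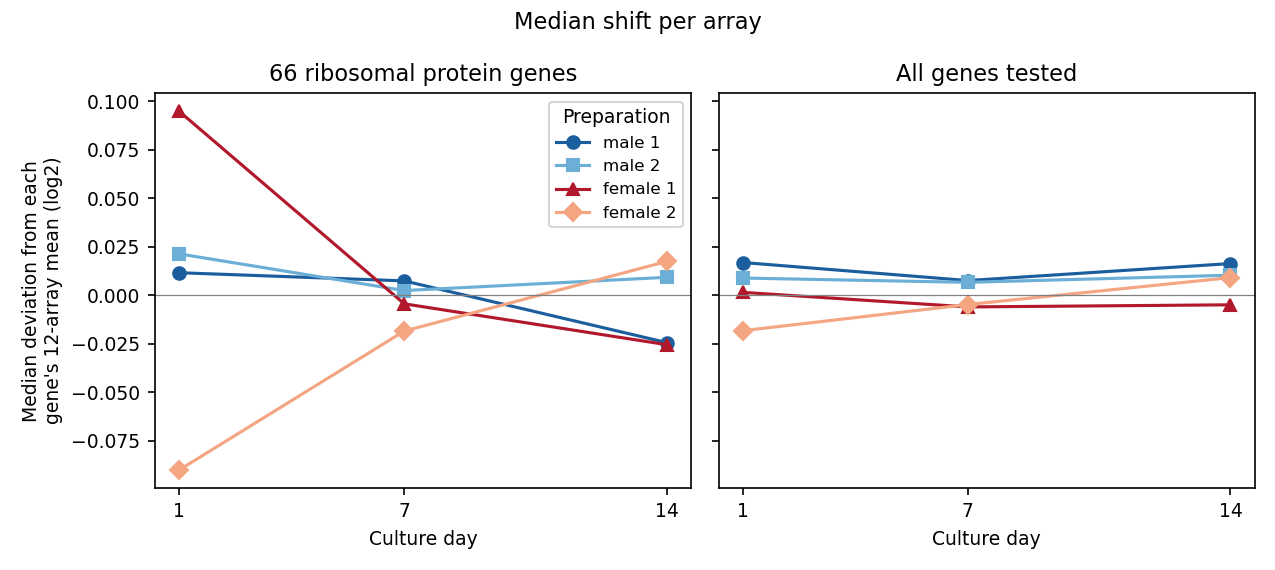
Median deviation of the 66 ribosomal protein genes (left) and of all genes tested (right) from each gene's mean over the 12 arrays, in log2 units, by culture day, with a line for each preparation. In the left panel the day 1 array of female 1 lies at 0.09 and that of female 2 at -0.09, and the other 10 arrays lie between -0.03 and 0.03.

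Male and female preparations were compared on the mean of the 3 arrays of each, which left 2 values per sex. None of the 66 genes passed (limma, adjusted p) and 0 had an unadjusted p below 0.05, whereas 0.177% of all genes passed and 19.8% had an unadjusted p below 0.05. The median male minus female difference was 0.01, against 0.02 for all genes, with 37 genes higher in male. The extremes were Rps19 at 0.12 and Rps4l at -0.12, and the smallest adjusted p was 0.338. The lowest bound of any 95% interval was -0.52 and the highest 0.36, so the 2 preparations per sex bound a difference in the deposited values only to that size.

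The change over days was also compared between the sexes. In all 3 comparisons 0 members passed (limma), and 0 of all 11861 genes. At an unadjusted p below 0.05 there were 2 of 66 between days 7 and 1, 2 between days 14 and 7 and 0 between days 14 and 1, against 4.76%, 4.09% and 6.87% of all genes. The largest differences in the set, male minus female, were 1.00 ± 0.41 (SE) for Rps23rg1 between days 7 and 1, with its values near the background, and -0.95 ± 0.41 for the same gene between days 14 and 7. Away from the background they were -0.33 for Rps28 between days 7 and 1, -0.43 for Rpl27 between days 14 and 7, and -0.40 for Rpl22l1 between days 14 and 1.

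The rest of the translation apparatus was measured on the same arrays and set beside these genes. Between days 14 and 1, 0 of 76 mitochondrial ribosomal protein genes passed (limma, with 6 at an unadjusted p below 0.05). Their median was 0.06, against -0.0031 for the cytosolic set and 0.0070 for all genes. Above 0 lay 58 of them, against 6109 of 11861 genes. The shift was uneven, with medians of 0.06 in male 1, 0.05 in male 2, 0.01 in female 1 and 0.14 in female 2. In female 1, 39 of 76 were higher, and in female 2, 63. Of 16 other TOP messages, such as the translation elongation genes Eef1a1 and Eef2 and the tumour protein gene Tpt1, 0 passed (1 unadjusted), with 11 below 0 and a median of -0.05. Fau, which encodes a small subunit protein fused to a ubiquitin-like domain and falls outside the symbol rule, differed by -0.07 (adjusted p = 0.557).

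Single genes passed in related lists, at shares below the 14.4% of all genes. These were 11.1% of the genes that control TOP messages or mTORC1, 3.23% of initiation factors and 10% of elongation genes. Of 18 genes that control TOP messages or mTORC1, Rragd rose by 1.03 ± 0.12 (SE, limma adjusted p = 0.00138) and Rragc fell by 0.23 (adjusted p = 0.032), both encoding Rag GTPases that bring mTORC1 to the lysosome. Larp1 differed by -0.10 (adjusted p = 0.459). Of 31 initiation factors 1 fell, Eif1a, which helps the small subunit scan for the start codon, by 0.24 (adjusted p = 0.031), and of 10 elongation genes 1 rose, Eef2k, the kinase that inhibits Eef2, by 0.38 (adjusted p = 0.024).

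Among 59 ribosome biogenesis genes, which process ribosomal RNA and assemble the subunits in the nucleolus, 1 rose and 1 fell between days 14 and 1. Their median was -0.05, with 42 below 0, against 5752 of 11861 genes. Utp20, a component of the small subunit processome, rose by 0.34 (limma adjusted p = 0.016) in 4 of 4 preparations, and Tsr1, which acts late in small subunit maturation, fell by 0.22 (adjusted p = 0.041) in 4 of 4, a call lost with the replicate block (adjusted p = 0.072). Between days 7 and 1, 0 of the 59 passed (limma), with a median of -0.06. Below 0 lay 41, against 5941 of 11861 genes, and 6 had an unadjusted p below 0.05, against 19.5% of all genes. The medians were -0.13 in male 1, -0.05 in male 2, 0.03 in female 1 and -0.01 in female 2. In female 1, 28 of the 59 were lower. The shares that passed in these lists were below that of all genes, 14.4%, as was that of the ribosomal protein genes.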

How the data were processed

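Message levels were measured in 12 biotin-labelled samples on expression arrays, as deposited log2 values. Per the submitters' processing notes the tools were RMA, Transcriptome Analysis Console 4.0 and Partek 7.0 with no role or order, and a filter or an array build is not given in the sources used here. RMA compresses differences near both ends of its scale. Of 13081 probe sets, 11889 had 1 symbol and 1192 none, and 19 symbols with several probe sets kept the brightest by mean. Groups came from the labels, and 0 columns were left unused.

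Tests used limma 3.58.1 in R 4.3.3 on all 12 arrays, with a mean for each sex and day. Each contrast averages the changes of the 2 sexes, two-sided, with Benjamini-Hochberg adjustment over 11861 genes. The fit was also run on simulated data with independent noise on each array. Those data hold no pairing by pool, so they cannot show how the fit behaves with it. Arrays of 1 preparation come from the same pool of 3 mice, so the design is paired by label. The correlation of deviations from group means within a sex was 0.04 to 0.32 over all genes, and a fit with preparation as a replicate block was an alternative. The male against female test used 4 preparation means. The number of arrays limits the precision, and p-values measure the spread between pools. Tracts and motifs were searched with Python 3.11.15 in RefSeq promoter entries of GRCm38.p6.

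The ribosomal protein genes, the marker and pathway lists and the tests were chosen with earlier results of these data known. Genes were named by rule: those that passed in a comparison, filled to 6 with the largest absolute changes, the 2 largest for each sex comparison, the 11 paralogs and associated genes, and Rplp0, Rplp1, Rpsa, Rps6, Rpl5 and Rpl11. Rpl36 in the first day interval, Rpl19, Rpl35a beside the female pools, Rpl39, Rps4x, Rps15, the choice of sequences printed and single genes of the other lists were chosen after their values were seen.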

Additional observations from a re-analysis of the deposited data

Results flagged for a closer look

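In 75 groups of 4 arrays of a day, 4 held 1 array far from the other 3, by a gap to the nearest of more of the group's range than Dixon's 95% critical value allows, which chance gives in about 1 in 20 groups. Rpl37rt read 9.37 in male 1 at day 7, against 9.61 to 9.63 in the other preparations. Rpl5, one of the Mdm2-binding large subunit genes, read 10.71 in female 2 at day 1, against 10.92 to 10.94. Rps20 of the small subunit read 10.74 in female 1 at day 14, against 10.81 to 10.82. Rps23rg1 read 5.06 in female 1 at day 1, against 4.33 to 4.42, which are under the level of 4.79 taken as near the background.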

How the results depend on the processing

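The count of ribosomal protein genes that rose between days 14 and 1, which was 1, became 0 with dim genes left out, since Rpl10l is itself removed there, and 0 to 0 with each preparation left out in turn. The count that fell, which was 0, became 2 with a trended and robust spread (Rpsa and Rpl29), where the gene that rose was Rps27l in place of Rpl10l. With the preparation as a replicate block, the paired fit, the counts stayed at 1 and 0, the limma adjusted p of Rpl10l was 0.0203, and all genes passed between days 14 and 7 numbered 101, against 58 without it. The median change of the set turned sign with the preparation left out in all 3 comparisons, with ranges of -0.0557 to 0.0262 between days 7 and 1, -0.0154 to 0.0128 between days 14 and 7 and -0.0578 to 0.0433 between days 14 and 1. Leaving out 1 day 1 array, a setting chosen after seeing the data, gave Rpl10l 0.41 (adjusted p = 0.0479) without that of female 1 and 0.50 (adjusted p = 0.0238) without that of female 2. Of 858 values of the 24 named genes under the alternatives, 850 kept their side of the threshold, 5 lost the call, 3 gained it and 0 reversed a called direction, and 83 values past the test in neither setting changed sign. Over all genes, 560 passed between days 7 and 1, against 956 with a trended and robust spread and 40 to 75 without 1 preparation, 58 between days 14 and 7, against 309, 96 with dim genes left out and 0 to 8 without 1 preparation, and 1706 between days 14 and 1, against 494 to 826 without 1 preparation. The causes were not tested. Values come from 4 pools, near-identical copies may share probe sets, and 2 of the 66 genes lie near the background.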
